A study of Mus musculus with 6 samples.

Results

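The comparison described here set 2 arrays of classically activated macrophages, M1(LPS + IFN-γ), directly against 2 arrays of alternatively activated macrophages, M2(IL-4). These are 4 of the 6 arrays of the series, chosen by their labels, and the 2 arrays of unstimulated cells (M0) were used only to say which side had moved. All 6 arrays are of bone marrow-derived macrophages from miR-155 knockout (KO) mice of the strain B6.Cg-Mir155tm1.1Rsky/J on the C57BL/6J background, whose age is not given, so every group here, M0 included, lacks miR-155, and no wild-type array was analysed here. Marrow was cultured with L929 cell supernatant, a source of macrophage colony stimulating factor, and from day 7 the washed cells were kept without it. M1 cells received LPS with IFN-γ at 20 ng/ml, M2 cells received IL-4 at 20 ng/ml and M0 cells received medium alone, all for 24 hours. The LPS dose is 100 ng/ml in the labels and another, far higher value in the methods. The titles number the arrays of each condition KO1 and KO2, read here as mouse 1 and mouse 2, although the labels do not say that arrays of different conditions with 1 number share a mouse, and a further KO sample had been removed by the authors for its RNA quality. Results therefore rest on 2 arrays per condition, and the p-values measure the spread between these cultures.

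LPS is sensed by Toll-like receptor 4 and IFN-γ by its own receptor, and together they act through NF-kB and interferon regulatory factors to switch on cytokines, chemokines and antiviral genes. IL-4 acts through its receptor and STAT6, and in mouse macrophages it is known for arginase, chitinase-like and resistin-like proteins and for lectin receptors such as the mannose receptor. miR-155 is a small RNA that macrophages make in response to LPS, and it represses mRNAs that pair with its seed. Its mature guide strand, from chr16:84714143-84714165 on the plus strand (GRCm38.p6, RefSeq), is shown to identify what all 6 arrays lack, with the seed (bases 2 to 8) in capitals.
mmu-miR-155-5p: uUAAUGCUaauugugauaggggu
The probe set annotated to Mir155 read 10.8 and 9.94 in M0, 10.5 and 9.42 in M1 and 9.33 and 10.1 in M2, in linear intensity units. It was low and alike in all 6 arrays, and since the part of the transcript it covers is not stated, it is no full check of the deletion.

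Values are intensities after robust multi-array averaging (RMA), which makes arrays comparable for a given probe set but not probe sets with each other. The array medians lay between 37.9 and 40.8, so a gene with values near 40 was about as bright as the middle probe set. The 2 M1 arrays correlated at 0.992 and the 2 M2 arrays at 0.995 across 45037 probe sets, and 433 probe sets differed over 2-fold between the M1 arrays against 120 between the M2 arrays and 49 between the M0 arrays. The log2 ratio of 3′ to 5′ Gapdh probe sets was 0.09 and 0.15 in M1, 0.20 and 0.11 in M2 and -0.08 and -0.07 in M0, so M1 and M2 overlapped in this measure of RNA integrity. The same ratio of Actb was 0.19 in both M1 arrays, 0.32 and 0.23 in M2 and 0.15 and 0.16 in M0, higher in both M2 arrays than in any other, and the part of this in the results was not tested. Differences below are log2 M1 minus M2 with their standard error (SE), from a limma fit over all 6 arrays, with p-values adjusted over all probe sets (Benjamini-Hochberg).

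The genes chosen to mark the conditions went with their labels, but they did so from different sides. Cxcl10, a chemokine induced by interferons, read 9024 and 467 in M1, 43.5 and 41.6 in M2 and 388 and 508 in M0. The M1 array of mouse 1 stood far above all others and that of mouse 2 lay within the M0 values. The difference of 5.59 (SE 1.05, adjusted p = 0.0087) passed, yet neither M1 nor M2 passed against M0 (adjusted p = 0.28 and 0.1), and without either M2 array the difference did not pass (adjusted p up to 0.065). Fcgr1, the high-affinity IgG receptor, read 6687 and 4336 in M1, 474 and 327 in M2 and 4315 and 3783 in M0, a difference of 3.77 (SE 0.23, adjusted p = 2.6e-05). Its M1 level was not separated from M0 by the test (0.41, adjusted p = 0.38), while its M2 level fell by 3.36 (adjusted p = 0.0001). The dimmer probe set of Fcgr1 also passed against M0 in M1 (0.84, adjusted p = 0.04), with M1 minus M2 at 3.90. The mannose receptor Mrc1 read 130.2 and 199.7 in M1 and 9583 and 8705 in M2, from 3268 and 3368 in M0. It was thus 56.6-fold higher in M2 than in M1 (difference -5.82, SE 0.19, adjusted p = 1.3e-06), most of it a fall in M1. Egr2, a transcription factor of the early growth response family, read 12.7 and 52.5 in M1, 1973 and 2004 in M2 and 289 and 230.2 in M0 (difference -6.27, SE 0.52, adjusted p = 0.00011). Both Mrc1 and Egr2 had fallen in M1 and risen in M2 from the M0 level.

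**Figure D1:**
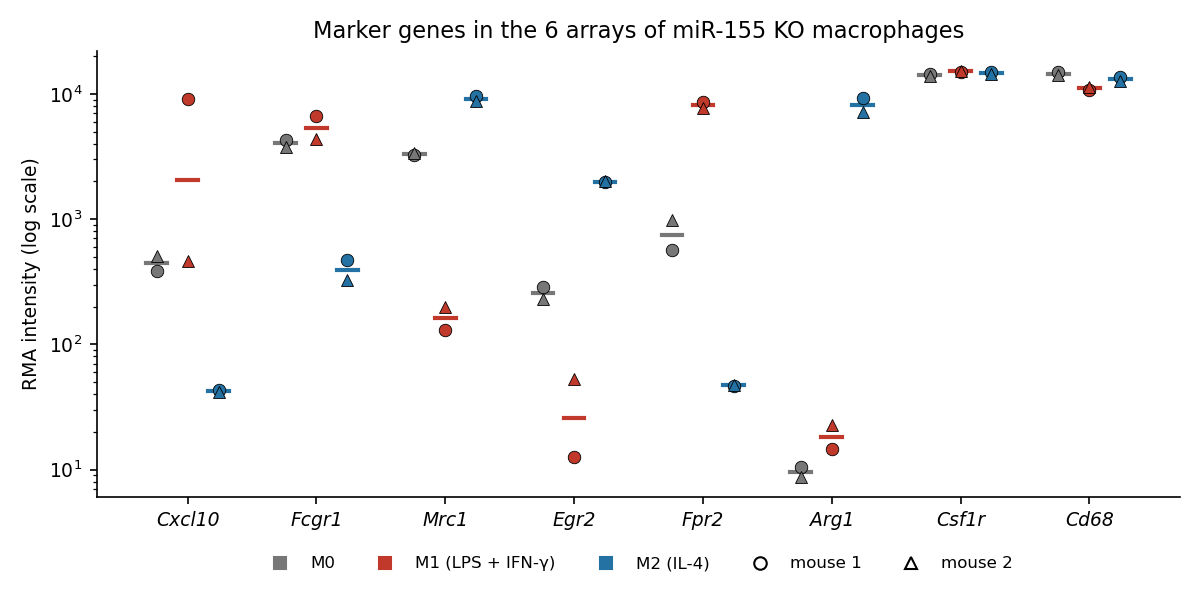
RMA intensity (log axis) of 8 genes in each of the 6 arrays, circles for mouse 1, triangles for mouse 2 and short lines for the geometric mean of a condition. Mrc1, Egr2 and Arg1 were high in M2, Fpr2 in M1, and the M1 arrays of Cxcl10 lay apart (9024 and 467) while Csf1r and Cd68 were bright in all arrays.

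Of 20968 genes, 573 were higher in M1 than in M2 by at least 2-fold (2.73% of all genes) and 771 were lower (3.68%), at an adjusted p under 0.05. A gene here is its brightest probe set. Without the fold threshold 6.36% of all genes were higher (1333) and 8.99% lower (1886). Differences over 16-fold were found for 34 genes that were higher and 38 that were lower in M1. Between M1 arrays 86 of the 573 higher genes lay over 2-fold apart, against 6 of them between M2 arrays, so much of the spread in genes high in M1 came from the M1 arrays.

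Set against M0, the 1344 called genes fell into sides of nearly equal size. Of the 573 genes higher in M1, 202 passed against M0 in M1 alone (the M1 side) and 191 in M2 alone (the M2 side). Another 89 had risen in M1 and fallen in M2, 10 had moved the same way in both, and for 81 neither change from M0 passed. Of the 771 lower genes the counts were 307 on the M1 side, 288 on the M2 side, 101 in opposite directions, 18 the same way in both and 57 with neither. A side names the change that passed and does not show that the other was absent. Of the 191 higher genes on the M2 side, 163 also lay above M0 in M1. The 81 with neither all lay above M0 in M1 and none above it in M2. The contrasts with M0 share the M0 arrays, so these counts are descriptions. Against M0, 3.79% of all genes were higher and 4.49% lower in M1, and 4.5% were higher and 3.06% lower in M2, at an adjusted p under 0.05. The number of opposite genes depended on single arrays. It ranged from 29 to 225 for those higher in M1 and from 21 to 172 for those lower, the lowest without an M0 array and the highest without the M1 array of mouse 2. Both M1 arrays lay on one side of both M0 arrays and both M2 arrays on the other in all 190 opposite genes, an order that their selection nearly fixes. It also held in 362 of the 573 and 384 of the 771 called genes, which the call between M1 and M2 favours. Over all 20968 genes, called or not, it held in 1271 with M1 above and 1170 with M1 below.

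**Figure D2:**
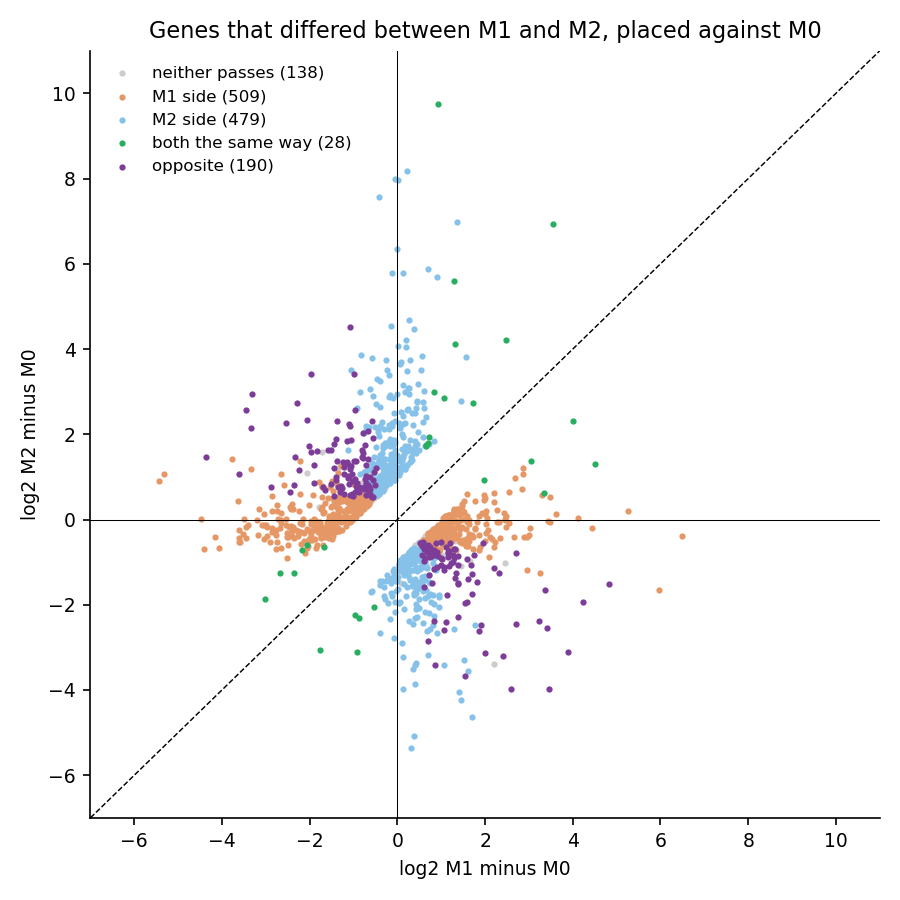
The 1344 genes that differed between M1 and M2, by their log2 change from M0 in M1 (x axis) and in M2 (y axis), coloured by which change passed the test. The dashed line marks equal change, and the colours mark 509 genes moved on the M1 side, 479 on the M2 side, 190 in opposite directions, 28 the same way and 138 with neither change past the test.

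In the lists of genes by function, interferon-stimulated genes and cell cycle genes moved almost whole, and the IL-4 response genes mostly did. The lists were chosen with earlier results of these data known. High shares of members may thus be built in in part, and all are descriptions. The median of all genes was 0.06 on the log2 M1 minus M2 scale, against 2.90 for interferon-stimulated genes, -3.60 for IL-4 response genes and -1.89 for cell cycle genes. Counts of list members given below stand beside 6.36% of all genes higher and 8.99% lower in M1. Counts near these shares say little about a list. In RNA from whole cultures, fewer cells of a type and less RNA per cell cannot be told apart.

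**Figure D3:**
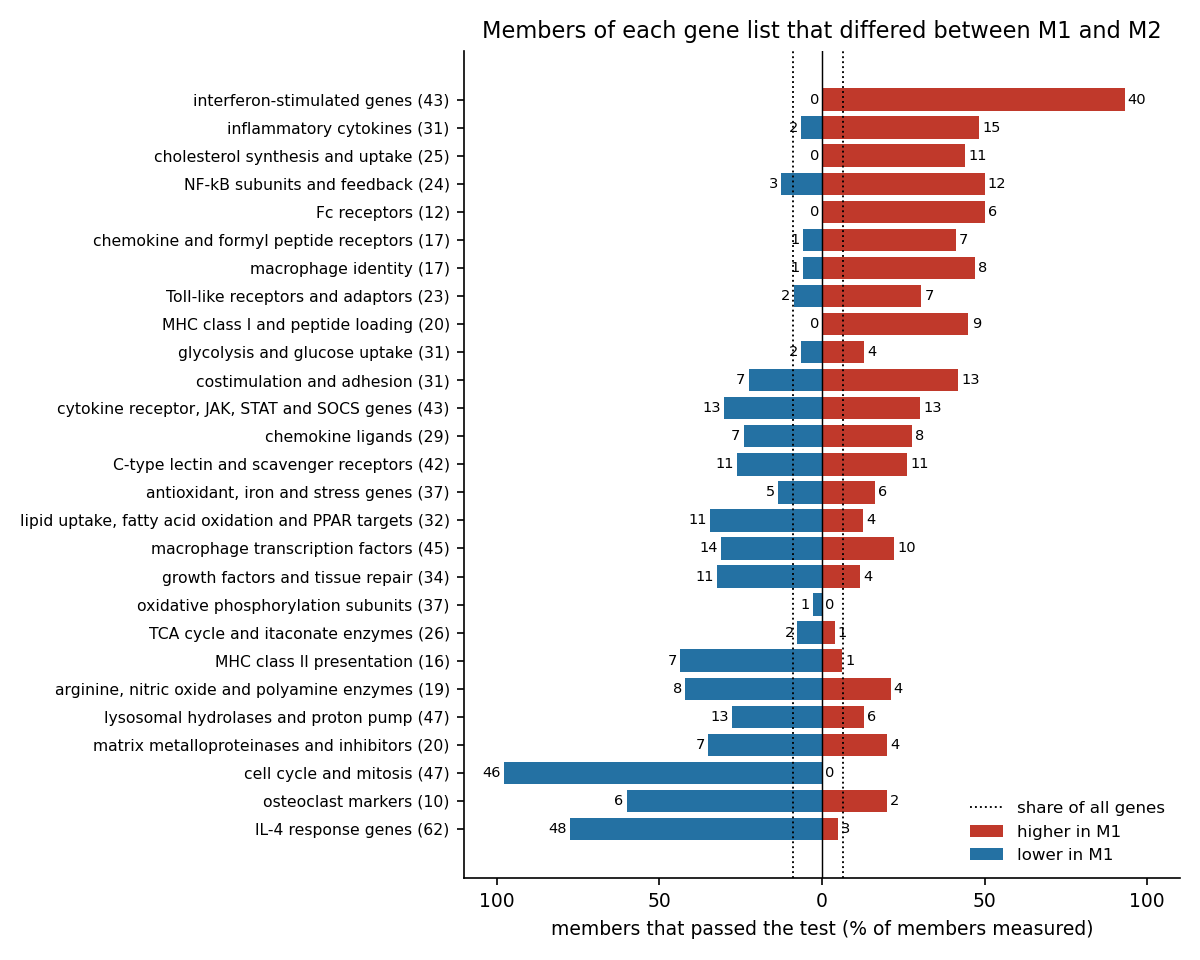
Share of the measured members of each gene list drawn (number measured in brackets) that passed the test as higher or lower in M1. Higher is right (red) and lower is left (blue), with the counts at the bar ends and lists ordered by their median difference. The neutrophil, B cell, T and NK cell, mast cell and basophil, eosinophil, erythroid, fibroblast and dendritic cell lists were not drawn. Dotted lines mark the share of all genes, 6.36% higher and 8.99% lower, and 40 of 43 interferon-stimulated genes lie right and 46 of 47 cell cycle genes left. Members were chosen with earlier results of these data known.

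The genes that stood highest in M1 over M2 included host defence proteins and receptors of phagocytes. Lcn2, lipocalin 2, which withholds iron from bacteria, read 8769.6 and 6964 in M1 and 37.2 and 42.9 in M2, with 67.2 and 232 in M0. Both M1 arrays stood far above any M0 array, and the difference of 7.61 (SE 0.46, adjusted p = 2.3e-05) was the largest rise of all called genes. Fpr2 and Fpr1, receptors for formylated peptides of bacteria, came next. Fpr2 read 8651 and 7720.5 in M1, 46.4 and 47.5 in M2 and 564 and 977 in M0 (difference 7.44, SE 0.23, adjusted p = 1.2e-06). Fpr1 read 5258 and 3359.9 in M1, 35.0 and 30.8 in M2 and 208 and 388 in M0 (difference 7.0, SE 0.30, adjusted p = 4e-06). Each thus lay above M0 in M1 and below M0 in M2, without overlap. Cd38, an ectoenzyme that consumes NAD, read 3974 and 3676 in M1, 63.8 and 35.0 in M2 and 133 and 137 in M0 (difference 6.34, SE 0.24, adjusted p = 2.5e-06). Ms4a4c, a membrane protein, read 10480.3 and 6932 in M1, 107 and 74.6 in M2 and 1611 and 1227 in M0 (difference 6.58, SE 0.24, adjusted p = 2e-06). Ly6a, also called Sca-1, read 5804 and 4853 in M1 and 124 and 96.3 in M2 (difference 5.60, SE 0.26, adjusted p = 6.2e-06). The Schlafen genes Slfn4 and Slfn1 differed by 6.16 and 5.96, and the guanylate-binding Mpa2l by 5.62, all 3 with the M1 array of mouse 1 more than 2-fold above that of mouse 2. Of the 15 largest rises, 8 belonged to the opposite genes.

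Among interferon-stimulated genes, which carry out antiviral defence, 40 of 43 measured members were higher in M1 than in M2 and none was lower, against 6.36% of all genes. The gap lay mostly on the M2 side: 34 members were lower in M2 than in M0, and 8 were higher in M1 than in M0. Ifit3, an antiviral protein of the IFIT family, showed this pattern with 6356 and 1657 in M1, 64.1 and 62.9 in M2 and 2878 and 2388 in M0. Its difference was 5.68 (SE 0.49, adjusted p = 0.00014), its change from M0 was 0.31 in M1 (adjusted p = 0.8) and -5.37 in M2 (adjusted p = 0.00045). Ifit2 of the same family read 6977 and 1489.7 in M1, 74.1 and 72.8 in M2 and 2561 and 2403 in M0 (difference 5.46, SE 0.55, adjusted p = 0.00032). Rsad2, viperin, read 15452 and 3281 in M1, 369 and 370.4 in M2 and 5348 and 5361 in M0 (difference 4.27, adjusted p = 0.0013). For all 3, unstimulated KO cells were already bright, IL-4 cultures were far below them, and the M1 arrays straddled M0. Irf7, a regulator of interferon genes, was the clearest member moved on both sides, with 8659 and 7078 in M1, 261 and 167 in M2 and 2769 and 2589 in M0 (difference 5.23, SE 0.21, adjusted p = 2.9e-06). Cxcl9, a chemokine that IFN-γ induces, was instead an M1-side gene with 4229 and 2728 in M1, 24.8 and 34.3 in M2 and 37.6 and 38.1 in M0 (difference 6.86, SE 0.22, adjusted p = 1.2e-06). Members not separated by the test were Gbp2 (0.34, adjusted p = 0.61), Gbp3 (1.49, adjusted p = 0.064) and Irf8 (0.34, adjusted p = 0.17).

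The 2 M1 arrays differed in this list, while the 2 M2 arrays did not. In M1, 42 of the 43 members were brighter in mouse 1 than in mouse 2, with a median gap of 1.03 on the log2 scale, and the medians relative to M0 were 1.28 in mouse 1 and 0.17 in mouse 2. In M2 the medians were -2.18 and -2.14. The count of members higher in M1 than in M2 stayed between 35 and 41 with each array left out.

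**Figure D4:**
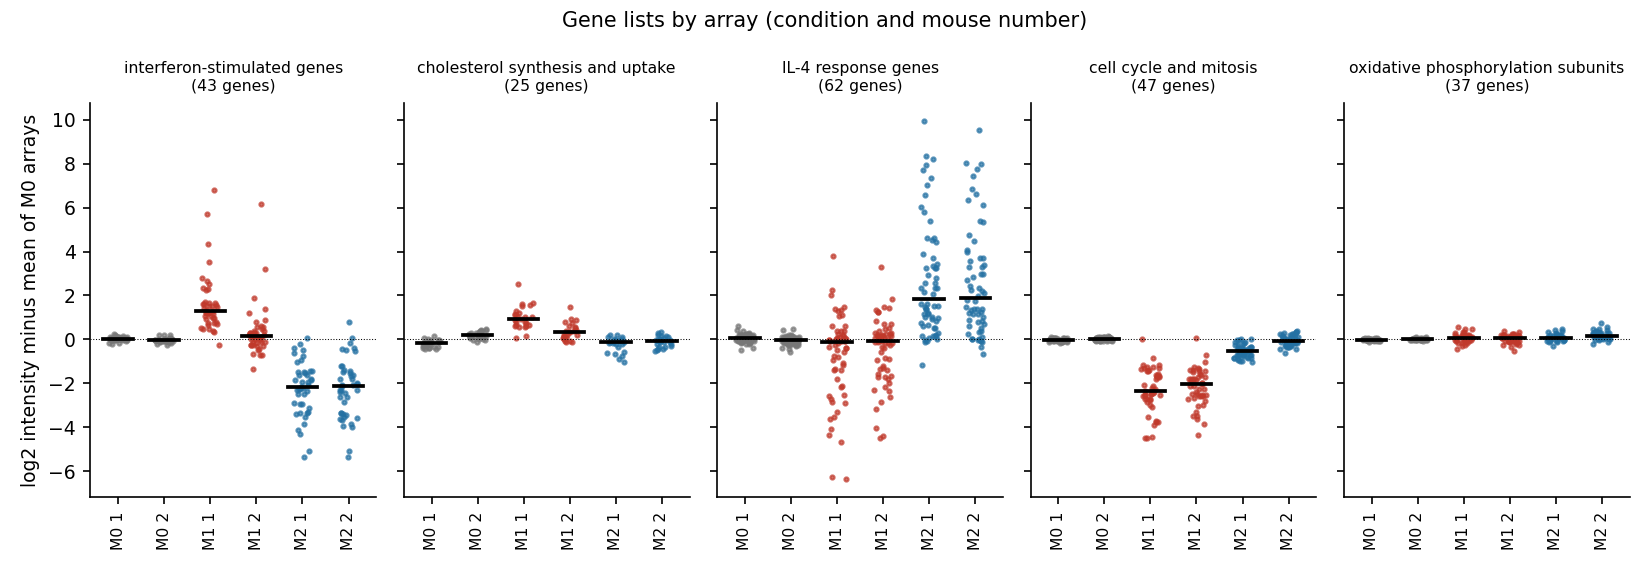
Log2 intensity of each member (points) of 5 gene lists relative to the mean of the M0 arrays, by array, with the list median as a black line. Interferon-stimulated genes sit low in both M2 arrays and differ between the M1 arrays (medians 1.28 and 0.17), cell cycle genes are low in both M1 arrays (-2.37 and -2.06), and oxidative phosphorylation subunits stay near 0.

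Promoter letters were compared between these lists as a description of their sequence. The letters GAAANNGAAA, the core of the interferon-stimulated response element (ISRE), were searched on both strands in the 250 bases before each start site in the RefSeq promoter table (GRCm38.p6). They were found in 14 of 41 promoters of 33 interferon-stimulated genes (34.1%), in 1 of 52 promoters of 41 IL-4 response genes (1.92%), and in 2.98% of all 32851 promoters. The letters TTCNNNNGAA, a spacing that STAT6 is known to bind, were found in 15.4% of promoters of IL-4 response genes, in 12.2% of those of interferon-stimulated genes and in 5.85% of all. TTCNNNGAA, the spacing of the interferon-gamma-activated sequence (GAS), was in 11.5%, 22% and 7.02% respectively. These patterns can overlap each other, some genes have several promoters in the table, and a match is not a bound site. Among the 15 largest falls 9 genes had promoters in the table, 19 in all, and the others were not searched. Only Retnla and Tmem26 of these 9 had the STAT6 spacing, in 2 of the 19 promoters (10.5%). The 15 largest rises, with promoters for 13 genes, had it more often, in 3 of 15 promoters (20%). The ISRE core was in 0 of the 19 and 5 of the 15. The windows of Cxcl10 and Ifit3 show the ISRE core in promoters of genes higher in M1 than in M2. Neither of these 2 genes passed against M0 in M1. The windows of Retnla and Tmem26 show the STAT6 spacing. Each is 80 bases, written along the gene's strand, with the matched letters in capitals: Cxcl10 from chr5:92349058-92349137 (minus strand), Ifit3 from chr19:34583338-34583417, Retnla from chr16:48842429-48842508 and Tmem26 from chr10:68723496-68723575 (all plus strand).
Cxcl10: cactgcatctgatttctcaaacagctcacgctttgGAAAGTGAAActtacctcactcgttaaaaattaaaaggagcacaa
Ifit3: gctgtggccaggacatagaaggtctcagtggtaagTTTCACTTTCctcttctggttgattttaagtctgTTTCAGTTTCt
Retnla: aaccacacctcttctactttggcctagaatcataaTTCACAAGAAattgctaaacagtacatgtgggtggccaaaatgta
Tmem26: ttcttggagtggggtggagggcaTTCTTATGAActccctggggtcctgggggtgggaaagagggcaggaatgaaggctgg

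Inflammatory mediators split. Of 31 measured, 15 were higher in M1 and 2 lower, against 6.36% and 8.99% of all genes. Il1b, which encodes interleukin-1β, read 3522 and 5747 in M1, 138 and 132 in M2 and 108 and 127 in M0 (difference 5.06, SE 0.21, adjusted p = 4e-06), an M1-side gene in both mice. The acute-phase gene Saa3 read 22192 and 21480.2 in M1, 961 and 1139.6 in M2 and 4302 and 7795 in M0 (difference 4.38, adjusted p = 1.5e-05). Hp, haptoglobin, read 1503 and 1469 in M1, 48.0 and 44.9 in M2 and 127 and 166 in M0 (difference 5.0, adjusted p = 1.2e-06), and like Saa3 it had risen in M1 and fallen in M2. Marco, a scavenger receptor for bacteria, differed by 4.24 (adjusted p = 0.00057). The mediators best known from classical activation were not all separated. Il6 read 59.0 and 24.4 in M1 and 16.3 and 62.4 in M2 (difference 0.25, adjusted p = 0.83), with the M2 array of mouse 2 the brightest. Tnf read 565 and 166 in M1 and 122 and 143 in M2 (difference 1.21, adjusted p = 0.13). Il12b read 18.9 and 23.4 in M1 and 17.5 and 14.4 in M2 (difference 0.40, adjusted p = 0.2). Il6 and Il12b were near or below the array median in most arrays. The 2 members that were lower in M1 were Csf1, the growth factor of macrophages, with 264 and 147 in M1 and 1393 and 1577 in M2 (difference -2.91, adjusted p = 0.00011), and F3, tissue factor, with 6.81 and 7.42 and 64.9 and 54.6 (difference -3.07, adjusted p = 6.2e-06).

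Of 29 chemokine ligands 8 were higher in M1, 4 without the M2 array of mouse 1, 7 were lower and 14 did not pass. The ligands of CXCR3, which draw T cells, were among those higher: beside Cxcl9 and Cxcl10, Cxcl11 read 1232 and 217 in M1 and 17.2 and 24.9 in M2 (difference 4.64, adjusted p = 0.0017). Ccl5 read 21017 and 19838 in M1, 4998 and 5068 in M2 and 6279 and 7619 in M0 (difference 2.02, adjusted p = 3.7e-05). Those lower in M1 included the CCR4 ligands Ccl22 and Ccl17 and the eosinophil attractant Ccl24. Ccl22 read 53.7 and 45.9 in M1 and 1015 and 1113 in M2 (difference -4.42, adjusted p = 2.9e-06). Ccl17 read 40.4 and 38.8 in M1 and 366 and 637 in M2 (difference -3.61, adjusted p = 2.8e-05). Ccl24 read 178 and 168 in M1, 3947 and 2952 in M2 and 71.9 and 69.7 in M0 (difference -4.31, adjusted p = 1.9e-06), so it was above M0 in both. Among chemokine and formyl peptide receptors 7 of 17 were higher in M1 and 1 was lower, 3 without the M1 array of mouse 2, and Ccr7 was not separated (0.49, adjusted p = 0.063).

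For sensing of LPS and the NF-kB pathway, members higher in M1 outnumbered those lower, beside 6.36% of all genes higher and 8.99% lower. Among Toll-like receptors and adaptors 7 of 23 were higher and 2 lower, 1 without the M2 array of mouse 1. Tlr2, a receptor for bacterial lipoproteins, read 1881 and 2388 in M1, 160.4 and 218 in M2 and 676 and 786 in M0 (difference 3.50, SE 0.19, adjusted p = 1.1e-05). Irak3, a kinase-like protein that dampens the signal of these receptors, read 2116 and 1596 in M1 and 177 and 187 in M2 (difference 3.34, adjusted p = 1.8e-05). Both stood above M0 in M1 and below it in M2. Among NF-kB subunits and feedback genes 12 of 24 were higher and 3 lower. The inhibitor Nfkbia read 13612 and 11355 in M1 and 3573 and 4465 in M2 (difference 1.64, adjusted p = 0.00027). The subunits Nfkb1 and Rel were the reverse, with Nfkb1 at 1893 and 1531 in M1 and 3131 and 3015 in M2 (difference -0.85, adjusted p = 0.0041), and the subunit Rela was not separated (0.15, adjusted p = 0.52).

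The 5 genes with the largest fall in M1 against M2 were near or below the array median in M1 and M0 and very bright in M2. Arg1, arginase, which turns arginine into ornithine, read 14.6 and 22.6 in M1, 9348 and 7191 in M2 and 10.4 and 8.78 in M0. The difference of -8.82 (SE 0.22, adjusted p = 3.8e-07) was the largest fitted, but with M1 and M0 below the array medians its size is limited by the background, as it is for the other 4. Retnla, a resistin-like protein secreted by IL-4-treated macrophages, read 37.9 and 38.9 in M1, 10776 and 8509 in M2 and 33.7 and 32.1 in M0 (difference -7.96, SE 0.14, adjusted p = 5.3e-08). Mgl2, a lectin for galactose-type sugars, read 25.5 and 29.2 in M1, 6612 and 6739 in M2 and 28.3 and 25.5 in M0 (difference -7.94, SE 0.13, adjusted p = 5.3e-08). The mice gave close values for these genes, and no M1 array approached an M2 array. Tmem26, a transmembrane protein, read 28.7 and 31.7 in M1 and 8518 and 7005 in M2 (difference -8.0, SE 0.14, adjusted p = 5.3e-08). Ear11, an eosinophil-associated ribonuclease, read 12.3 and 12.2 in M1 and 3766 and 2732 in M2 (difference -8.03, SE 0.17, adjusted p = 1.2e-07). Among the next largest, Chi3l3, the chitinase-like protein Ym1, was less even, with 115 and 45.5 in M1, 4589 and 2764 in M2 and 28.1 and 28.4 in M0 (difference -5.62, SE 0.39, adjusted p = 4.4e-05). Of 62 IL-4 response genes measured, 48 were lower in M1 than in M2 and 3 were higher, against 8.99% and 6.36% of all genes. The 3 higher were Il4ra, a chain of the IL-4 receptor itself (932 and 1012 in M1 and 541 and 375 in M2, difference 1.11, adjusted p = 0.004), Cd274, the ligand PD-L1 (1.78, adjusted p = 0.0013), and the scavenger receptor Msr1 (1.19, adjusted p = 0.0038). Of the 46 members lower by at least 2-fold, 21 were on the M2 side, 13 opposite, 9 on the M1 side and 3 above M0 in both. The related Pdcd1lg2, the ligand PD-L2, went the other way to Cd274, with 85.7 and 43.2 in M1 and 2119 and 1335 in M2 (difference -4.79, adjusted p = 3.5e-05). Within the list, Cd163 (-0.68, adjusted p = 0.37) and Tgm2 (-0.88, adjusted p = 0.24) were not separated.

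The 190 opposite genes, 89 higher and 101 lower in M1, had median changes from M0 of 1.16 in M1 and -1.02 in M2 for the former and -1.08 and 1.08 for the latter. Beside Mrc1 and Egr2, those lower in M1 included Tm7sf4, the fusion receptor DC-STAMP, with 33.4 and 40.8 in M1, 2488 and 2247 in M2 and 483 and 334 in M0 (difference -6.0, SE 0.19, adjusted p = 1.2e-06). Itgb3, integrin β3, read 20.7 and 23.5 in M1, 1202 and 928 in M2 and 52.3 and 41.0 in M0 (difference -5.58, SE 0.17, adjusted p = 1.2e-06). Clec10a, a lectin related to Mgl2, read 36.2 and 46.7 in M1, 2110.1 and 1649.6 in M2 and 474 and 369 in M0 (difference -5.50, adjusted p = 1.8e-06). Clec10a fell in M1 from its M0 level, whereas the change of Mgl2 in M1 did not pass (0.02, adjusted p = 0.95). Itgax, the integrin CD11c, read 178 and 394 in M1, 8854 and 8404 in M2 and 1524 and 1092 in M0 (difference -5.03, SE 0.32, adjusted p = 3.2e-05). Dusp4, a phosphatase of MAP kinases, differed by -5.39 and Vwf, von Willebrand factor, by -4.80. Pparg, a nuclear receptor of lipid metabolism, read 37.7 and 39.4 in M1, 500.0 and 467 in M2 and 289 and 279.8 in M0 (difference -3.65, SE 0.12, adjusted p = 1.2e-06), and Myc read 55.4 and 71.1, 632 and 844 and 249 and 241 in the same order (difference -3.54, adjusted p = 8.6e-06). With at least 2-fold asked of both changes from M0, 37 of the genes higher in M1 and 38 of those lower remained in the opposite class.

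**Figure D5:**
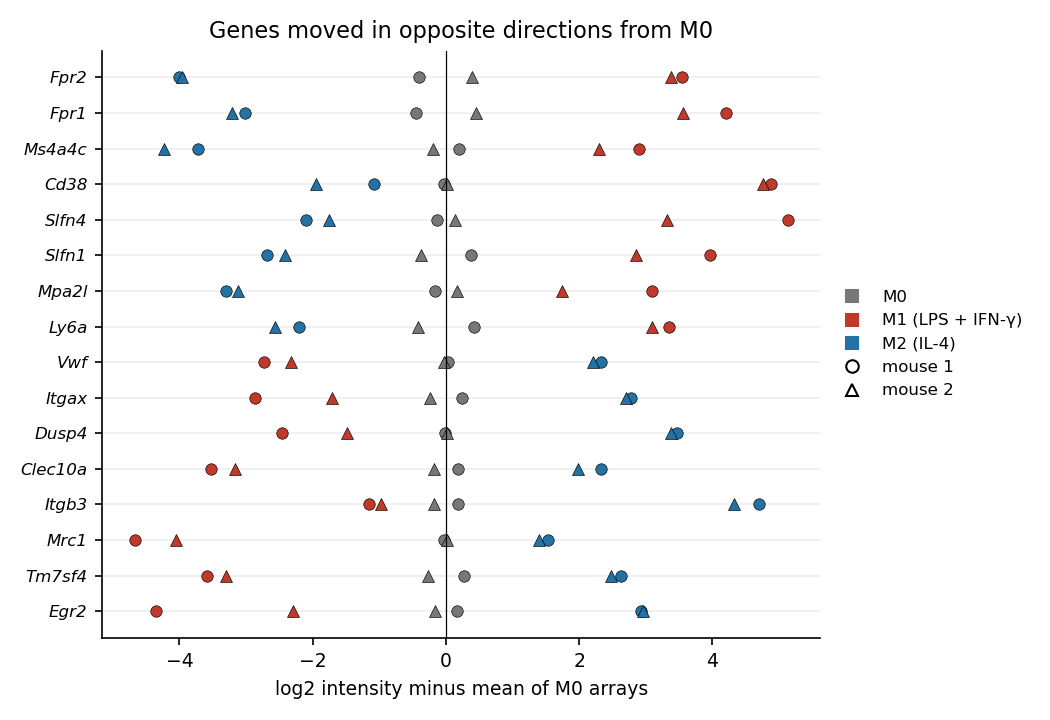
Log2 intensity relative to the mean of the M0 arrays for the 8 opposite genes with the largest difference in each direction, 1 point per array, circles for mouse 1 and triangles for mouse 2. For every gene both M1 arrays lie on one side of the M0 arrays and both M2 arrays on the other.

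Where both stimuli moved a gene the same way, 28 genes still differed by 2-fold or more. Slc7a2, a carrier of cationic amino acids, read 317 and 223 in M1, 2949 and 2639 in M2 and 20.0 and 26.2 in M0, so M1 lay over 8-fold above M0 and M2 a further 10.5-fold above M1 (difference -3.39, SE 0.20, adjusted p = 1.9e-05). Ccl8, a monocyte chemoattractant, read 1081 and 1035 in M1, 4740.0 and 2610.0 in M2 and 200.0 and 179.8 in M0 (difference -1.73, adjusted p = 0.0019). Arg1 was also in this class, but its M1 values of 14.6 and 22.6 were below the array medians, and its change from M0 in M1 barely passed (0.93, adjusted p = 0.041). Il1a read 259.7 and 263 in M1, 40.4 and 39.4 in M2 and 26.5 and 25.0 in M0 (difference 2.71, adjusted p = 4.2e-06), with M2 just above M0. Other genes rose in both without a difference between them that passed: Jak2, a kinase of cytokine receptors, read 1528 and 1038 in M1, 1198 and 1105 in M2 and 325 and 322 in M0 (difference 0.13, SE 0.18, adjusted p = 0.71), and the inhibitory receptor Fcgr2b read 7623 and 6831, 7845 and 6507 and 3592 and 3026 in that order (difference 0.01, SE 0.15, adjusted p = 0.97).

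In cytokine receptor and JAK-STAT genes, 13 of 43 were higher and 13 lower in M1, the latter 7 without the M2 array of mouse 1, and the SOCS feedback inhibitors divided. Socs3 read 1333 and 1229 in M1, 74.3 and 75.9 in M2 and 57.4 and 94.7 in M0 (difference 4.09, SE 0.21, adjusted p = 9.8e-06). Socs2 read 20.1 and 19.9 in M1, 1896 and 1404 in M2 and 21.2 and 19.2 in M0 (difference -6.35, SE 0.16, adjusted p = 3.8e-07). Cish, a related inhibitor, read 96.4 and 112 in M1, 1959 and 1447 in M2 and 102 and 81.2 in M0 (difference -4.01, adjusted p = 6.1e-06). Socs3 thus stood clear of its M0 values in M1 alone, and Socs2 and Cish in M2 alone. Socs1 read 261 and 86.2 in M1 and 763 and 656 in M2 (difference -2.24, adjusted p = 0.0076, up to 0.058 with an array left out), higher in M2 in both mice. Il6st, the shared receptor chain gp130, read 262 and 316 in M1, 3345 and 2602 in M2 and 649 and 591 in M0 (difference -3.36, adjusted p = 7.9e-06). The transcripts of Stat6 (0.15, adjusted p = 0.5) and of the IFN-γ receptor chain Ifngr1 (-0.26, adjusted p = 0.29) were not separated.

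Antigen presentation divided by class. In class II, 7 of 16 members were lower in M1 and 1 higher, the latter 0 without the M1 array of mouse 1 or the M2 array of mouse 2, and 8 were above M0 in M2 against 1 in M1. H2-Aa, a class II chain, read 1184 and 1007 in M1, 6514 and 5030.2 in M2 and 921 and 551 in M0 (difference -2.39, SE 0.24, adjusted p = 0.0003). Cd74, the invariant chain, read 4169.7 and 3147 in M1, 16202 and 16653 in M2 and 3010.1 and 1954 in M0 (difference -2.18, SE 0.21, adjusted p = 0.00027). Ciita, the master regulator of class II genes, read 19.3 and 28.6 in M1, 122 and 114 in M2 and 29.2 and 24.8 in M0 (difference -2.32, adjusted p = 0.0001). These genes were bright in M2 and at most modestly above M0 in M1. In class I and peptide loading, 9 of 20 were higher in M1 and none lower, against 6.36% and 8.99% of all genes. H2-Q7, a non-classical class I gene, read 5315 and 4759 in M1 and 494 and 379 in M2 (difference 3.54, adjusted p = 6.2e-06), and the peptide transporter Tap1 read 3699.9 and 2782 and 912 and 797 (difference 1.91, adjusted p = 0.00012). H2-Q7 has close relatives in the class I family that its probes may share. Of Fc receptors and their signalling genes, 6 of 12 were higher and none lower, among them Fcgr4 with 3598 and 2796 in M1, 431 and 167 in M2 and 2065 and 1412 in M0 (difference 3.57, adjusted p = 0.00047). Costimulation and adhesion genes went both ways, 13 of 31 higher and 7 lower, and Cd86 was not separated (0.39, adjusted p = 0.23). C-type lectin and scavenger receptors did too, with 11 of 42 each way.

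Cell cycle genes were lower in M1 than in M2 for 46 of 47 members. This was an M1-side change, since 46 members were lower in M1 than in M0 and none passed between M2 and M0. Ube2c, which tags mitotic proteins for destruction, read 34.1 and 53.1 in M1, 469 and 703 in M2 and 726 and 794 in M0 (difference -3.75, SE 0.24, adjusted p = 3.2e-05). Ccnb2, a mitotic cyclin, read 20.1 and 21.1 in M1, 225 and 324 in M2 and 402 and 474 in M0 (difference -3.71, SE 0.18, adjusted p = 8.2e-06). M2 arrays lay a little below M0, more so in mouse 1 (list medians of -0.52 and -0.09 from M0), and M1 arrays lay far below both.

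Of 10 osteoclast markers 6 were lower in M1 and 2 higher, against 8.99% and 6.36% of all genes. The higher members were Acp5, the tartrate-resistant acid phosphatase of osteoclasts, with 859 and 1095 in M1 and 581 and 329 in M2 (difference 1.15, adjusted p = 0.02), and the transcription factor Nfatc1 (0.49, adjusted p = 0.036). With an array left out 1 of them passed, and 0 without the M2 array of mouse 2. Atp6v0d2, a proton pump subunit needed for fusion, read 43.5 and 159.5 in M1, 6865 and 6476 in M2 and 4221 and 3045 in M0 (difference -6.32, SE 0.48, adjusted p = 7.2e-05). The summed intensity of the list was 1794 and 2237 in M1, 17156 and 14706 in M2 and 6935 and 5746 in M0, while the calcitonin receptor Calcr, which defines mature osteoclasts, lay between 8.65 and 9.69 in all 6 arrays. The part of osteoclast-like cells in these values was not tested. Of 20 matrix metalloproteinases and inhibitors 7 were lower and 4 higher, the latter 1 or 2 without an M0 array, without the M1 array of mouse 2 or without the M2 array of mouse 2. Mmp12, an elastase of macrophages, read 68.6 and 251 in M1, 10372 and 11558 in M2 and 6012 and 4578 in M0 (difference -6.38, SE 0.48, adjusted p = 6.6e-05). Mmp9, a gelatinase, read 42.9 and 172 in M1 and 3430.0 and 2911 in M2 (difference -5.20, adjusted p = 0.00027). Mmp14, a membrane-bound member, was higher in M1, with 3245 and 3534 in M1 and 704 and 498 in M2 (difference 2.52, adjusted p = 4e-05). Among growth factors and repair genes 11 of 34 were lower, 5 to 7 without an M0 array, without the M1 array of mouse 1 or without an M2 array, and 4 were higher, 2 without the M2 array of mouse 2. Those lower included Igf1 at 1917 and 2035 in M1, 7306 and 8408 in M2 and 6528 and 6759 in M0 (difference -1.99, adjusted p = 3e-05) and Fn1, fibronectin, at 109.7 and 122 in M1 and 3161 and 1092 in M2 (difference -4.0, adjusted p = 0.00087).

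Metabolic lists moved unevenly, and several counts were near the shares of all genes, 6.36% higher and 8.99% lower in M1. Of 19 arginine, nitric oxide and polyamine genes 8 were lower and 4 higher in M1, the latter 1 or 2 without an M0 or M2 array. Nos2, which makes nitric oxide from the arginine that Arg1 also uses, read 51.6 and 43.7 in M1, 34.8 and 46.7 in M2 and 36.8 and 38.8 in M0 and was not separated (difference 0.24, adjusted p = 0.43). All 6 of its values were near the array median, so this probe set showed no induction in M1. Ass1, which regenerates arginine, read 2453 and 2511 in M1 and 426 and 769 in M2 (difference 2.12, adjusted p = 0.0017). In glycolysis and glucose uptake 4 of 31 were higher, 2 without an M0 array, and 2 were lower, 5 without the M1 array of mouse 2. Pfkfb3, which makes an activator of glycolysis, read 1879.9 and 2030.4 in M1, 192 and 156 in M2 and 297 and 301 in M0 (difference 3.50, SE 0.14, adjusted p = 2.8e-06), while Pfkp, a phosphofructokinase, was lower in M1 (-1.82, adjusted p = 0.00046). Of 37 oxidative phosphorylation subunits 1 passed, Ndufa1 (-0.44, adjusted p = 0.044), which did not pass without any 1 of the 6 arrays (adjusted p up to 0.16). Of 26 TCA cycle and itaconate genes 1 was higher and 2 lower, near the share of all genes, and 0 were higher with any array but the M1 array of mouse 2 left out. Cholesterol synthesis and uptake had 11 of 25 higher and none lower. The M1 array of mouse 1 was the brighter in 24 of these 25 genes, and the count of members higher was 22 without the M1 array of mouse 2, 7 without that of mouse 1, and 4 and 5 without an M2 array. Lipid uptake and PPAR target genes had 4 of 32 higher and 11 lower, and 5 and 3 lower without the M2 array of mouse 1 and of mouse 2. Those lower included the scavenger receptor Cd36 with 594 and 2295 in M1 and 7740.4 and 8614 in M2 (difference -2.81, adjusted p = 0.006, and 0.054 without the M2 array of mouse 2). Lysosomal genes had 6 of 47 higher, 3 without the M2 array of mouse 2, and 13 lower, 7 without that of mouse 1. Antioxidant, iron and stress genes had 6 of 37 higher and 5 lower, the latter 3 without the M2 array of mouse 2. In the last of these lists Tfrc, the transferrin receptor that takes up iron, read 747 and 653 in M1 and 4299 and 4439 in M2 (difference -2.65, adjusted p = 1e-05), and Sod2, the mitochondrial superoxide dismutase, read 10279.9 and 9574 and 1150.0 and 1648 (difference 2.85, adjusted p = 0.00015).

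Transcription factors of macrophages were lower in M1 for 14 of 45 and higher for 10, the latter 5 without the M2 array of mouse 2. Irf4, an interferon regulatory factor that acts downstream of IL-4, read 25.8 and 28.8 in M1, 334 and 335 in M2 and 28.0 and 23.6 in M0 (difference -3.62, SE 0.14, adjusted p = 2.2e-06). Klf4, a zinc finger factor, read 65.0 and 112 in M1 and 915 and 1140.1 in M2 (difference -3.58, adjusted p = 0.00014), and Bhlhe40 read 120.4 and 284 and 4053 and 3548 (difference -4.36, adjusted p = 7.2e-05). All 3 had risen in M2 and were not separated from M0 in M1. Maf, a transcription factor of macrophages, was higher in M1, with 2210.4 and 1667 in M1 and 1159 and 689 in M2 (difference 1.10, adjusted p = 0.017, and up to 0.086 without the M1 array of mouse 1 or the M2 array of mouse 2). Inpp5d, the phosphatase SHIP1 and a known target of miR-155, read 2278 and 2275 in M1 and 1426 and 1231 in M2 (difference 0.78, adjusted p = 0.0043). Tspan14 (0.25, adjusted p = 0.27) and Ptprj (0.04, adjusted p = 0.9) were not separated.

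The cells kept macrophage transcripts in both conditions. Counts of cell type markers here stand beside 6.36% of all genes higher and 8.99% lower in M1. Csf1r, the receptor of macrophage colony stimulating factor, read 15016 and 15214 in M1 and 14988 and 14274 in M2 (difference 0.05, SE 0.12, adjusted p = 0.84), and the lysosomal protein Cd68 read 10641 and 11444 and 13658 and 12743 (difference -0.26, SE 0.12, adjusted p = 0.23). Within the 17 identity genes 8 were higher in M1 and 1 lower, largely from the M2 side, where 6 were below M0. Emr1, the F4/80 antigen, read 13297 and 12264 in M1, 5235 and 5587 in M2 and 8930.0 and 10633 in M0 (difference 1.24, adjusted p = 0.00048). The summed intensities over 10 neutrophil markers were 2303 and 2382 in M1 and 2168 and 1679 in M2, with 2 of 10 higher in M1, 1 with any array but the M1 array of mouse 2 left out. The 2 were Camp, a granule peptide (0.71, adjusted p = 0.025, up to 0.12 with an array left out), and S100a8 at 293 and 164 in M1 and 64.4 and 48.8 in M2 (difference 1.97, adjusted p = 0.0015). The granule genes Elane, Mpo, Ngp and Ltf of this list lay between 16.8 and 68.5 in all 6 arrays and did not pass. The part of such cells in the Lcn2 and formyl peptide receptor values was not tested. Sums over the 14 T and NK cell markers (593 and 618 in M1, 548 and 487 in M2) and over the 9 erythroid markers (699 and 714, 766 and 687) lay close together, with 1 member (0 without the M2 array of mouse 2) and no member past the test. Of 10 B cell markers 1 was higher, 0 with any array but the M1 array of mouse 1 left out, and 1 lower, the latter the immunoglobulin heavy chain Igh-6 at 90.6 and 80.5 in M1, 226 and 157 in M2 and 764 and 618 in M0 (difference -1.14, adjusted p = 0.005). Of 11 mast cell and basophil markers 1 was higher, 0 with any array but the M2 array of mouse 1 left out. Of 6 eosinophil markers 1 was lower, 2 without the M1 array of mouse 2 or the M2 array of mouse 1. Of 10 fibroblast markers 2 were higher, 1 or 0 with any array but the M1 array of mouse 2 left out, with Col1a2 at 177 and 144 in M1 and 342 and 86.2 in M2, brightest in the M2 array of mouse 1. Of 10 dendritic cell markers 1 was higher and 2 were lower in M1, with differences from -3.19 to 2.07. The list summed to 9252 and 6169 in M1 and 2916 and 2927 in M2. Bst2, itself interferon-stimulated, made up most of these sums (8839 and 5765 in M1 and 1779 and 1619 in M2).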

How the data were processed

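RNA of miR-155 KO bone marrow-derived macrophages (2 M0, 2 M1 and 2 M2 arrays) was hybridised by the authors to Affymetrix Mouse 430 2.0 arrays, and the deposited values are linear intensities after RMA in GenePattern (version not given in the sources consulted). The authors' class means, fold changes, p-values and coefficients of variation in the same table were not used. The deposited series table held the same intensities to within 5e-06.

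After 64 control probe sets were left out, log2 intensities of 45037 probe sets were fitted across the 3 conditions by lmFit and eBayes of limma 3.58.1 (R 4.3.3, 3 residual degrees of freedom, 5.49 from the prior). M1 minus M2, M1 minus M0 and M2 minus M0 were tested two-sided, with Benjamini-Hochberg adjustment over all probe sets. Called genes and probe sets differed by at least 2-fold with an adjusted p under 0.05. A list member or named gene passed at an adjusted p under 0.05. A gene is its probe set with the highest mean among the 38545 probe sets with 1 symbol, while 859 with several and 5633 with none were not named. Of 20968 gene symbols, 16422 are current RefSeq symbols and 2053 are synonyms. Of the named genes with several probe sets, the other probe sets did not all pass the same way for Slfn1, Cxcl11, Ass1, Fn1, Socs1, Socs2, Tap1, Il4ra and Maf. The number of arrays limits the precision.

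Named were the 15 largest rises and falls, the 8 largest opposite genes each way, up to 4 members of each list, all calls of lists with 5 or fewer, the condition and macrophage markers and the genes the study names. Other list members were named after their values were seen. The members and lists were chosen with earlier results of these data known. In simulated data for M1 against M2 over 45037 probe sets, 18% of changes of 0.58 on the log2 scale were recovered. Recovery was 100% for changes of 1, 98% for 1.5 and 100% for 2, with 20 false calls among 178. No fold was asked of these calls. The simulated noise was normal, independent between probe sets and of equal spread in all conditions, whereas the M1 arrays here differed more than the M0 arrays. These shares may thus not hold for the data. Deviations of same-numbered arrays correlated at -0.162 between M1 and M0, 0.209 between M2 and M0 and -0.215 between M1 and M2, and the fit had no block, with the mouse as a block among the alternatives. Alternatives were another offset, filter, centring, quantile normalization, prior, each array left out and the methods' t-test. Some items are not reported here.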

Additional observations from a re-analysis of the deposited data

How the results depend on the processing

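Of the 144 genes named by rule, none of the 127 past the test changed direction under the alternatives run. For the others, a change of direction was counted only where the alternative passed, so those not separated, such as Il6, may have changed sign. The counts of probe sets and genes called between M1 and M2 stayed within 1.5 times under all but the methods' t-test. That test, a 2-sample test on each probe set by itself, called 454 probe sets (281 genes) higher and 997 (564 genes) lower at an unadjusted p under 0.05 with 2-fold, and after Benjamini-Hochberg adjustment it called 0 probe sets and 0 genes higher and 0 and 0 lower, while limma had 11437 probe sets at an unadjusted p under 0.05 with no fold asked. Of the 127 rule-named genes past the test, 19 did not pass without at least 1 array. With the mouse number as a replicate block 947 probe sets were higher and 1387 lower, and 80 and 78 genes were opposite. With the M1 numbers crossed in that block, an alternative chosen after seeing the data, the genes higher in M1 held 135 opposite, 17 moved the same way and 43 with neither change past the test, and those lower held 35 moved the same way and 18 with neither. With 2-fold also asked of the changes from M0, the genes higher in M1 held 37 opposite, 4 the same way and 202 with neither, and those lower 38, 9 and 209. With each array left out, the genes higher in M1 held 29 to 225 opposite, 128 to 255 on the M1 side, 113 to 220 on the M2 side, 3 to 22 the same way and 25 to 284 with neither. Those lower held 21 to 172 opposite, 7 to 34 the same way and 29 to 298 with neither. Where a condition kept 1 array, that array was assumed to vary like the others. Genes near the array median are limited by their signal over background, and the cause of these shifts was not tested.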
